A study of Mus musculus with 15 samples.

Results

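The cytosolic ribosomal protein (RP) genes code for the proteins of the cytosolic ribosome, which translates nuclear-encoded mRNAs. They were taken as the protein-coding genes whose symbol is Rpl or Rps followed by a number, together with Rplp0, Rplp1, Rplp2 and Rpsa. Of 331 symbols matching that pattern, 235 pseudogenes, 10 Rps6k kinases and the gene of a binding protein, Rps19bp1, were left out. This gave 85 RP genes of 39179 genes in the count tables, 52 of the large and 33 of the small subunit. The muscle paralog Rpl3l was kept among them. The choice used symbols and annotation only.

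Ribosomes hold most RPs in equal number, and their mRNAs are usually made in proportion. Most vertebrate RP mRNAs begin with a C followed by a run of pyrimidines, the 5′ terminal oligopyrimidine (TOP) motif, through which their translation follows mTORC1 signalling. A few RPs have paralogs with a restricted expression, and Rpl3l, which replaces Rpl3 in the ribosomes of striated muscle, is the best known of these.

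RNA was sequenced from the quadriceps muscle of 15 C57BL/6 mice that were either wild-type (WT) for Mrps5, which codes for a protein of the mitochondrial ribosome, or homozygous for its V338Y exchange, which raises misreading in mitochondria. There were 4 WT and 4 V338Y mice of 3 mo, and 3 WT and 4 V338Y mice of 19 mo, 1 library for each mouse. The comparisons ask how RP mRNAs differed with age within each genotype, with genotype at each age, and whether the age difference itself differed between genotypes. The exchange is present in all tissues, not in muscle alone. Total counts were between 8250653 and 18968132 per mouse, of which 85876 to 193016 fell on RP genes.

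The methods call 3 of the 4 groups female and give no sex for the 19 mo V338Y mice, but the sex-linked transcripts differed between the ages. Ddx3y, on the Y chromosome, was at 163 to 202 CPM, the count of a gene scaled to library size, in the 8 mice of 3 mo and at 0.083 or less in the 7 mice of 19 mo, whereas Xist was at 506 to 631 CPM at 19 mo and at 0.575 or less at 3 mo. By these transcripts the 3 mo mice were male, against what the methods give for them, and the 19 mo mice female. Age and sex cannot be told apart here, and every age difference below is a difference between such groups. The comparisons between genotypes are within an age and do not carry this limit. A lower level of an mRNA in a muscle piece can come from fewer cells that make it or from less of it per cell, and the 2 cannot be told apart.

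The TOP start can be seen in the reference sequence. RefSeq start windows (GRCm38.p6, 250 bases before to 50 after the start) were matched for 65 of the 85 genes, with 77 windows. At the annotated start base, 14 windows, 18.2%, had a C followed by 4 or more C or T, against 2.51% of all 32851 windows of the table. The letters CTTTCC stood within 40 bases of the start on the coding strand in 27.3% of RP windows and 3.69% of all windows, and on the other strand in 2.60% and 3.62%. CCGGAAG was found on either strand in 35.1% of RP windows against 8.86%. An annotated start can lie some bases from the true one, so a window without the tract says nothing about that mRNA. The following 30 bases run from 15 bases before the start, with the pyrimidine tract from the start base in capitals, for RP genes with such a start, and for Rpl3l and Rpl41, in which the start base is not part of one.
Rps18, chr17:33955651-33955680, minus strand: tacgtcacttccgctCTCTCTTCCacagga
Rps10, chr17:27635230-27635259, minus strand: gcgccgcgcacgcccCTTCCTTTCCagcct
Rps6, chr4:86857353-86857382, minus strand: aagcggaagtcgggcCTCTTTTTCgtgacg
Rpl15, chr14:18270972-18271001, minus strand: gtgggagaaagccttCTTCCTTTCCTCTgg
Rpl28, chr7:4792950-4792979, plus strand: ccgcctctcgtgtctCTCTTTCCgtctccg
Rpl35, chr2:39005117-39005146, minus strand: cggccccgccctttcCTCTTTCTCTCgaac
Rpl38, chr11:114668565-114668594, plus strand: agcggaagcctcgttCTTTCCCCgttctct
Rplp2, chr7:141447636-141447665, plus strand: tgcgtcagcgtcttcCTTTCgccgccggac
Rpl3l, chr17:24727811-24727840, plus strand: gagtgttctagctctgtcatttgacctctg
Rpl41, chr10:128549154-128549183, minus strand: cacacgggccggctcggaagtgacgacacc

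Of the 85 RP genes, 82 had counts in every mouse and passed the filter in all comparisons, 50 of the large and 32 of the small subunit. The other 3 are paralogs. Rpl10l had no count in any mouse, Rps27rt at most 1 and Rpl39l at most 8. Per kb of transcript and averaged over the 15 mice, the levels of the others ran from 10.4 CPM per kb for Rpl7l1 and 16.3 for Rps16 to 466 for Rplp1 and 550 for Rps27, whose protein carries a zinc finger on the small subunit. Rps29 and Rps14 were at 463 and 344 CPM per kb. These levels depend on the annotated transcript length and are uncertain for genes that share reads with near copies.

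All 82 genes were then compared by their deviation from the group mean (log2 CPM), each gene against the mean of the other 81, over the 15 mice. The median correlation was 0.75, and 64 genes were above 0.5. The highest was Rps27 at 0.96. The lowest were paralogs, Rpl3l at -0.19, Rpl7l1 at -0.08 and Rpl22l1 at 0.06, followed by Rpl3 at 0.22 and Rps13 at 0.23. These values are a description, since the mice share the scaling of their libraries.

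Summed over the 85 genes, the level on the TMM scale, which sets the bulk of genes equal between mice, was lower at 19 mo. The sums in 3 mo WT mice 1 to 4 were 10910, 10395, 11488 and 11236 CPM, and those in 3 mo V338Y mice 1 to 4 were 11093, 11800, 10698 and 11039 CPM. In 19 mo WT mice 2, 4 and 5 they were 9787, 10285 and 8459 CPM, and in 19 mo V338Y mice 2, 3, 4 and 5 they were 8603, 8492, 8983 and 7896 CPM. In each genotype all mice of 19 mo were below all mice of 3 mo. As a plain share of all counts the groups overlapped, with 1.04% ± 0.0730 in 3 mo WT (SD, n = 4), 1.03% ± 0.0339 in 3 mo V338Y (n = 4), 0.963% ± 0.120 in 19 mo WT (n = 3) and 0.967% ± 0.102 in 19 mo V338Y mice (n = 4). Without the 10 most counted genes of the tissue the shares were 1.70%, 1.71%, 1.54% and 1.47%.

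**Figure D1:**
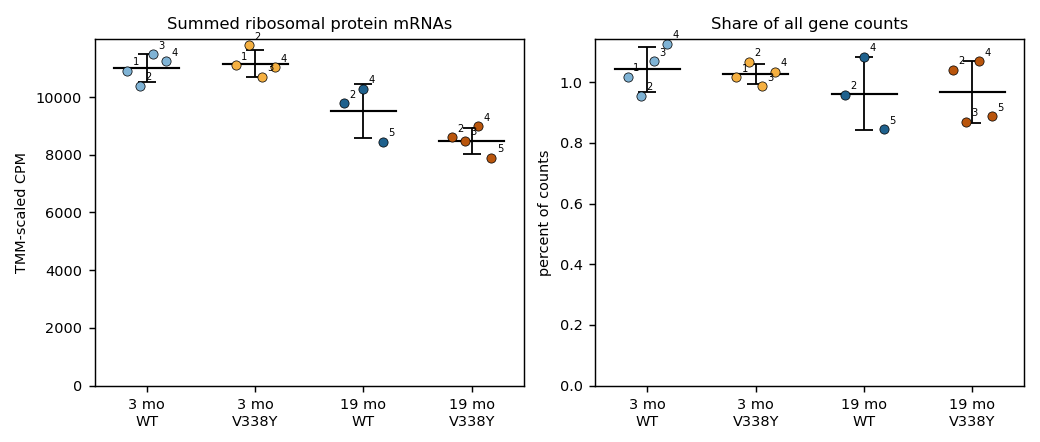
Summed RP mRNAs by group, each point 1 mouse with its number, bars the mean ± SD. Left, the sum in TMM-scaled CPM, in which all 19 mo mice lie below the 3 mo mice of their genotype. Right, the share of all gene counts in percent, in which the ages overlap.

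In WT mice, RP mRNAs were lower at 19 mo by a small amount. By edgeR's quasi-likelihood test with Benjamini-Hochberg adjustment over all 13657 genes tested, 20 of 82 RP genes were down-regulated at an adjusted p below 0.05 (called in what follows), none was up-regulated and 62 were not called. Of all genes tested, 17.8% were down-regulated and 18.3% up-regulated, against 24.4% of RP genes called lower. At an unadjusted p below 0.05, 34 were lower and 0 higher, and DESeq2 called 24 lower and 0 higher. The median log2 fold change over the 82 genes was -0.22 (interquartile range -0.32 to -0.13) against 0.02 over all genes, and 77 of 82 were negative. The 19 mo and 3 mo WT mice did not overlap for 27 RP genes, each lower at 19 mo, against 21.7% of all genes in that direction. With 1 mouse left out, 10 to 22 were called lower. The lowest counts were 10 without 3 mo WT mouse 4, 11 without 3 mo WT mouse 3 or 19 mo WT mouse 5, and 13 without 3 mo WT mouse 1. The large subunit had 13 of 50 genes called lower and the small subunit 7 of 32, with medians of -0.18 and -0.23.

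In V338Y mice, most RP mRNAs were lower at 19 mo. Of the 82 genes, 56 were down-regulated, 1 was up-regulated, Rpl3, and 25 were not called, against 22.5% of all 13868 genes tested lower and 24.4% higher. DESeq2 called 64 lower and 1 higher. The median was -0.36 (interquartile range -0.48 to -0.26) against 0.07 over all genes, and 81 of 82 values were negative. The age groups did not overlap for 66 genes lower and 1 gene higher at 19 mo, against 21.9% and 20.3% of all genes. In the large subunit 35 of 50 genes were called lower and in the small subunit 21 of 32. Of the genes called lower, 17 were called in both genotypes, 39 in V338Y mice alone and 3, Rpl13, Rpl7l1 and Rps2, in WT mice alone. With neither genotype called, 22 genes remained, among them the TOP start genes Rps6, Rps10, Rps18 and Rpl28 shown above, and Rpl4, Rpl5 and Rpl41. The other TOP start genes shown above, Rpl15, Rpl35, Rpl38 and Rplp2, were called lower in V338Y mice. The test of the difference between genotypes, given further on, called no RP gene.

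Both counts depended on how libraries were scaled and on transcript length. With total counts in place of TMM factors, an alternative chosen after the data were seen, 5 RP genes were called lower in WT and 9 in V338Y mice, with medians of -0.12 and -0.066. That scaling moved the median of all genes to 0.11 and 0.36, so that the RP median lay 0.23 below that of all genes in WT and 0.43 below it in V338Y mice, as it did under TMM. A change of scaling shifts all genes of a library alike, so this distance could hardly move. RP transcripts are short, with a median of 775 bases against 2797 for all genes tested, and other short mRNAs were lower at 19 mo as well. The 719 other protein-coding genes under 1000 bases had a median log2 fold change of -0.44 with age in WT mice, 45.8% of them called lower, and in V338Y mice 732 such genes had a median of -0.47, with 52.2% called lower. RP genes under 1000 bases had medians of -0.23 and -0.39 in these comparisons. Once a smooth trend on transcript length was removed from each library, 5 RP genes were called lower and 2 higher in WT mice with a median of 0.0078, and 35 lower and 1 higher in V338Y mice with a median of -0.25.

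**Figure D2:**
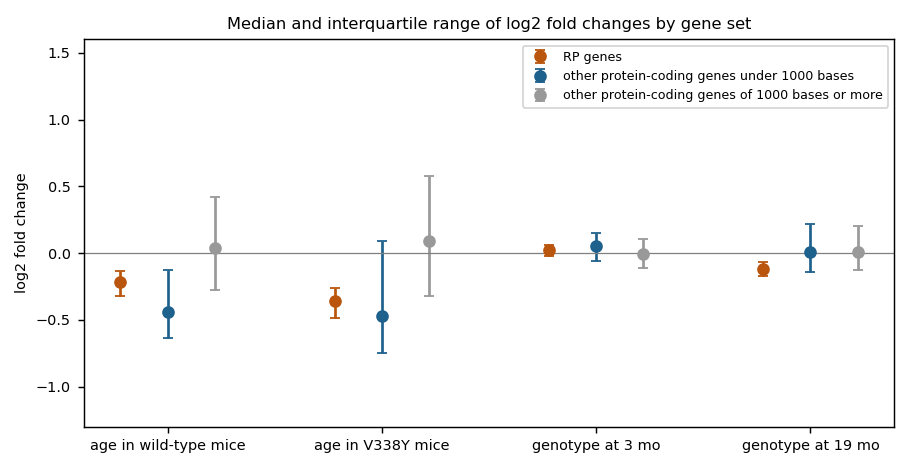
Median (point) and interquartile range (bar) of the log2 fold changes of the RP genes, of other protein-coding genes with transcripts under 1000 bases and of longer ones, in the 4 pairwise comparisons. With age, the short genes other than RP lay at -0.44 in WT and -0.47 in V338Y mice, below the RP genes at -0.22 and -0.36. Between genotypes at 19 mo the RP median was -0.12, with an interquartile range of -0.17 to -0.063, and that of the longer genes was 0.0085.

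**Figure D3:**
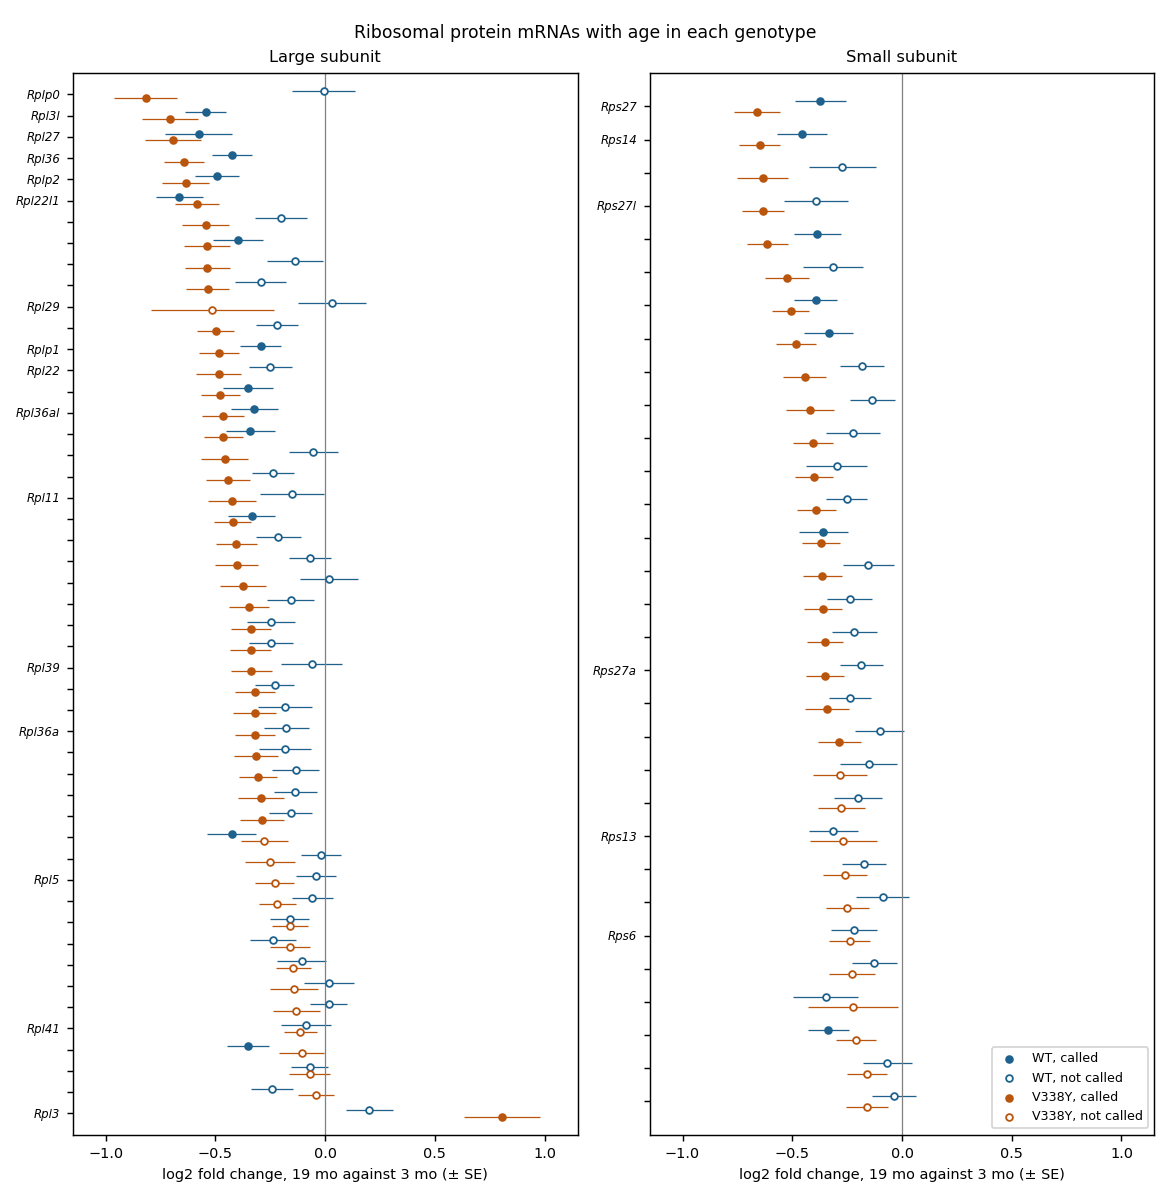
Log2 fold change at 19 mo against 3 mo (± SE) of tested RP genes in WT (blue) and V338Y mice (orange), large subunit on the left and small subunit on the right, ordered by the V338Y value, with the names of some genes described in the text. Filled points passed an adjusted p of 0.05. Nearly all points lie left of 0, and Rpl3, at the foot of the left panel, lies right of it in both genotypes.

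Rpl3l fell with age in both genotypes, while its partner Rpl3 rose in V338Y mice. Rpl3 (uL3), a protein at the peptidyl transferase centre, is replaced by Rpl3l in mature muscle fibres. The 2 coding sequences differ enough to be told apart in sequencing, with 74.3% identity over 1208 aligned bases and no identical stretch as long as a read. The 60 coding bases in which they differ most, in transcript orientation and with differing bases in capitals (GENCODE M21, GRCm38), show this.
Rpl3, chr15:80078743-80078802, minus strand: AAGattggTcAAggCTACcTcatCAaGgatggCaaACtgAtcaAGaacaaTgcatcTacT
Rpl3l, chr17:24733923-24733982, plus strand: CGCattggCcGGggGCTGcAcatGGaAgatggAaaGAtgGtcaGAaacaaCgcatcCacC

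Rpl3l was at 254, 279, 264 and 249 CPM in 3 mo WT mice 1 to 4 and at 282, 264, 269 and 245 CPM in 3 mo V338Y mice 1 to 4. At 19 mo it was at 197, 169 and 170 CPM in WT mice 2, 4 and 5 and at 155, 202, 132 and 155 CPM in V338Y mice 2 to 5. All 19 mo mice were below all 3 mo mice. The log2 fold change with age was -0.55 ± 0.093 (SE) in WT mice (adjusted p = 0.00248, edgeR) and -0.71 ± 0.127 in V338Y mice (adjusted p = 0.00181, edgeR).

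Rpl3 was at 49.5, 44.7, 43.5 and 48.9 CPM in 3 mo WT mice and at 42.5, 42.2, 41.9 and 39.4 CPM in 3 mo V338Y mice. In 19 mo WT mice 2, 4 and 5 it was at 46.4, 60.004 and 54.3 CPM, within or above the range of the young WT mice, and in 19 mo V338Y mice 2 to 5 at 74.3, 48.4, 92.7 and 72.5 CPM, all above the young V338Y mice. It rose by a log2 fold change of 0.81 ± 0.173 in V338Y mice (adjusted p = 0.00439, edgeR), while in WT mice the value was 0.20 ± 0.107 and was not called (adjusted p = 0.166, edgeR). At 19 mo, V338Y against WT, the log2 fold change was 0.46 ± 0.216 (adjusted p = 0.569, edgeR), and 0.61 ± 0.113 with mouse number as a block (adjusted p = 0.0609, edgeR). The age difference was larger in V338Y mice by 0.59 ± 0.214 (adjusted p = 0.460, edgeR). With mouse number as a block, although the numbers were not shown to pair mice at either age, that term was 0.74 (adjusted p = 0.0284, edgeR).

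Counted per kb, Rpl3l made up 84.6% ± 1.40 of the pair in 3 mo WT mice (SD, n = 4) and 86.2% ± 0.355 in 3 mo V338Y mice (n = 4). The shares were 80.7%, 73.5% and 75.5% in 19 mo WT mice 2, 4 and 5, and 67.2%, 80.4%, 58.3% and 67.7% in 19 mo V338Y mice 2, 3, 4 and 5. No 19 mo mouse reached the lowest share at 3 mo, 83.3%. The 19 mo genotypes overlapped through V338Y mouse 3.

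**Figure D4:**
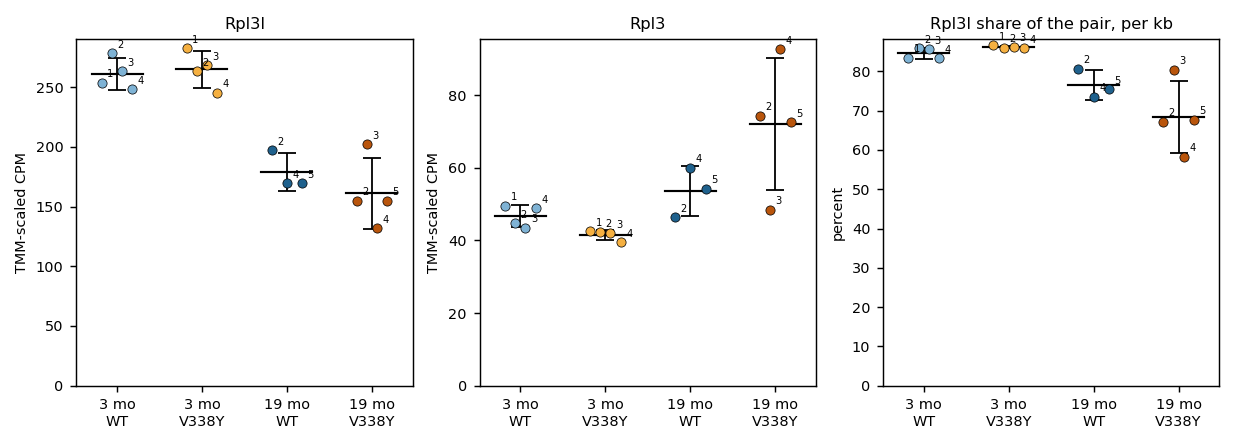
Rpl3l and Rpl3 in TMM-scaled CPM and the share of Rpl3l in the pair per kb (percent) for each mouse, marked with its number, with the mean ± SD of each group. Rpl3l is lower in every 19 mo mouse than in every 3 mo mouse, Rpl3 reaches 92.7 CPM in 19 mo V338Y mouse 4, and V338Y mouse 3 stays nearest to the WT mice.

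Markers of other cell types were measured beside these values, and with age 18.3% of all genes were called higher and 17.8% lower in WT mice, and 24.4% and 22.5% in V338Y mice. The summed level of 15 myofibre markers, among them the most abundant mRNAs of the tissue, was 301528 to 366144 CPM in the 3 mo mice, 276086 to 339528 CPM in 19 mo WT mice and 201767 to 316587 CPM in 19 mo V338Y mice, of which mouse 3 had the highest value, and 6 of 15 were called lower and 1 higher with age in V338Y mice, against 3 and 3 in WT mice. The 12 macrophage markers summed to 234 to 423 CPM at 3 mo, 343 to 400 CPM in 19 mo WT and 412 to 507 CPM in 19 mo V338Y mice, with 5 and 6 of 12 called higher with age in WT and V338Y mice. The 10 endothelial markers summed to 272 to 332 CPM at 3 mo and to 383 to 629 CPM at 19 mo. With age, 4 of them were called higher in WT and 5 in V338Y mice. The 10 neutrophil markers summed to 0.274 to 6.53 CPM in all but 2 mice, 19 mo V338Y mice 3 and 5, with 28.3 and 633 CPM. For age, 8 of them passed the filter in V338Y mice and 3 in WT mice. The added ones passed only through the 19 mo V338Y mice, so calls of this list are not compared between genotypes. The 12 lymphocyte markers summed to 46 to 255 CPM at 3 mo and 54 to 207 CPM at 19 mo. For age, 3 of these passed the filter in WT and 7 in V338Y mice, so their calls are not compared either. The 10 adipocyte markers ran from 1002 to 2820 CPM at 3 mo and from 1345 to 3437 CPM at 19 mo. This sum did not follow Adipoq, a member of the list. The highest sum, in 19 mo WT mouse 5, came with Adipoq at 38.8 CPM. Adipoq was highest in 19 mo V338Y mouse 4, at 143 CPM, where the list summed to 3413 CPM. With age, 1 of the 10 markers was called higher and 2 lower in WT mice, at a median log2 fold change of -0.66. In V338Y mice 4 were called higher and 0 lower, at a median of 0.99. The 10 fibroblast markers ran from 1395 to 2227 CPM at 3 mo and from 1023 to 2233 CPM at 19 mo, with 1 called higher and 3 lower in each genotype. The 8 genes listed as satellite cell markers include Des, which myofibres make as well, so their sum is not a level of these cells alone. They summed to 1463 to 1889 CPM at 3 mo and 1483 to 1952 CPM at 19 mo. Of 6 tested, 2 were called higher and 0 lower in WT mice, and 3 higher and 1 lower in V338Y mice. The 7 erythroid markers summed to 157 to 323 CPM at 3 mo, 98 to 151 CPM in 19 mo WT and 162 to 855 CPM in 19 mo V338Y mice. None of these lists held a gene at 0 in all mice. Their part in the changes of Rpl3, Rpl3l and the other RP genes was not tested. Without 19 mo V338Y mouse 5, 52 RP genes were called lower with age and the value of Rpl3 was 0.81 (adjusted p = 0.00558, edgeR), with mouse 3 kept.

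Among the other paralogs, Rpl22l1, the paralog of Rpl22, an RNA-binding protein of the large subunit, was at 51.6, 40.8, 46.4 and 50.9 CPM in 3 mo WT and at 57.9, 57.0, 53.03 and 52.3 CPM in 3 mo V338Y mice, and at 31.0, 30.7 and 27.9 CPM in 19 mo WT and 34.2, 39.7, 31.1 and 40.6 CPM in 19 mo V338Y mice. The ages did not overlap in either genotype, with log2 fold changes of -0.66 ± 0.106 in WT (adjusted p = 0.00192, edgeR) and -0.58 ± 0.099 in V338Y mice (adjusted p = 0.00139, edgeR). At each age every V338Y mouse was above every WT mouse, by 0.22 ± 0.088 at 3 mo and 0.31 ± 0.119 at 19 mo, though neither value passed the adjustment (adjusted p = 0.472 and 0.538, edgeR). Rpl22 itself was at 96.5 to 105 CPM in 3 mo WT and 94.8 to 108 CPM in 3 mo V338Y mice, and at 74.6 to 94.3 CPM and 61.1 to 79.1 CPM in the 19 mo groups. Its log2 fold change with age was called in V338Y mice at -0.48 ± 0.103 and not in WT mice at -0.25 ± 0.097.

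Rps27 and its paralog Rps27l, an mRNA that p53 can induce, moved the same way in V338Y mice, with log2 fold changes of -0.66 ± 0.105 and -0.63 ± 0.095. In WT mice Rps27 was called at -0.37 ± 0.116, and Rps27l, at -0.39 ± 0.148, was not. Rpl36al, an autosomal paralog of the X-linked Rpl36a, was called in both genotypes at -0.32 ± 0.108 and -0.47 ± 0.094. Of the 4 X-linked RP genes, Rpl36a was called lower in V338Y mice at -0.32 and Rpl39, at the peptide exit tunnel, at -0.34, whereas Rpl10 and Rps4x were at -0.13 and -0.16 there and at 0.02 and -0.04 in WT mice, not called.

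The P-stalk proteins recruit translation factors to the ribosome. Rplp1 and Rplp2, which bind Rplp0 as dimers, fell in both genotypes. Rplp2 was at 143, 120, 140 and 134 CPM in 3 mo WT and 134, 138, 141 and 117 CPM in 3 mo V338Y mice, and at 96.5, 103 and 86.1 CPM in 19 mo WT and 87.7, 73.9, 94.1 and 82.4 CPM in 19 mo V338Y mice. The ages did not overlap, with log2 fold changes of -0.49 ± 0.100 in WT (adjusted p = 0.00561, edgeR) and -0.64 ± 0.108 in V338Y mice (adjusted p = 0.00137, edgeR). For Rplp1 the values were -0.29 ± 0.094 (adjusted p = 0.0374, edgeR) and -0.49 ± 0.091 (adjusted p = 0.00232, edgeR).

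Rplp0, the base of the stalk, was called lower with age in V338Y mice. It was at 339, 232, 357 and 342 CPM in 3 mo WT mice 1 to 4 and at 337, 369, 332 and 328 CPM in 3 mo V338Y mice 1 to 4. At 19 mo it was at 306, 320 and 321 CPM in WT mice 2, 4 and 5 and at 201, 214, 214 and 140 CPM in V338Y mice 2 to 5. The 19 mo V338Y mice were below all other mice, and 3 mo WT mouse 2 was next. The log2 fold change with age was -0.01 ± 0.144 in WT mice, or -0.13 without 3 mo WT mouse 2, and -0.82 ± 0.142 in V338Y mice (adjusted p = 0.00157, edgeR). At 19 mo, V338Y against WT, it was -0.69 ± 0.163 (adjusted p = 0.483, edgeR), and -0.76 ± 0.159 with mouse number as a block (adjusted p = 0.0800, edgeR). DESeq2 called it at -0.70 (adjusted p = 0.0201), the only RP gene it called in that comparison.

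The counts of Rplp0 were tied to those of its processed pseudogenes. Gm8730, a copy without introns on chromosome 8 that matches the Rplp0 coding sequence at 942 of 954 bases, was counted in the same 5 mice in which Rplp0 was lowest, at 20.7 CPM in 3 mo WT mouse 2 and at 20.4, 19.2, 21.2 and 39.2 CPM in 19 mo V338Y mice 2 to 5. In the other 10 mice it was at 0.222 CPM or less. Gm9625, a second copy, with 97.5% identity, was at 5.89 CPM in 3 mo WT mouse 2, at 5.91, 5.16, 5.32 and 12.1 CPM in 19 mo V338Y mice, and at 0.730 CPM or less in the others. The highest level of Gm8730 and the lowest of Rplp0 were both in 19 mo V338Y mouse 5. These copies were singled out after their values were seen. The 60 bases in which Rplp0 and Gm8730 differ most hold 3 differences, in capitals.
Rplp0, chr5:115561168-115561227, plus strand: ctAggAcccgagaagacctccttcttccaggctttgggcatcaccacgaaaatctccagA
Gm8730, chr8:102865352-102865411, minus strand: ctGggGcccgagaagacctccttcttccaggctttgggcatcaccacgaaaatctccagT

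Of the stretches of Rplp0 coding sequence as long as a read, 5.43% hold no difference from Gm8730. When the counts of all pseudogenes matched by sequence were added to their parent genes, an alternative chosen after the data were seen, the Rplp0 log2 fold change with age in V338Y mice was -0.59 ± 0.106 (adjusted p = 0.00176, edgeR) and that between genotypes at 19 mo was -0.47 ± 0.122 (adjusted p = 0.517, edgeR). The part of the pseudogenes in the Rplp0 values was not tested beyond this.

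Rps13 showed a like pattern without regard to group. Its copy Rps13-ps1 differs from it at 2 of 456 coding bases, and 86.1% of read-length stretches hold no difference. Rps13-ps1 was at 31.8 CPM in 3 mo WT mouse 3, at 29.0, 32.6 and 29.0 CPM in 3 mo V338Y mice 1, 2 and 4, at 20.1 CPM in 19 mo V338Y mouse 3, and at 0.0827 CPM or less in the other 10 mice. Rps13 in those 5 mice was at 94.7, 87.0, 98.2, 87.1 and 58.9 CPM. It was at 119, 99.8 and 121 CPM in the other 3 mo WT mice, 112 CPM in 3 mo V338Y mouse 3 and 79.3 to 91.9 CPM in the other 19 mo mice. In the 3 groups with such mice, they had the lowest Rps13 of their group. A stretch with 1 of the differing bases in capitals follows.
Rps13, chr7:116332390-116332449, minus strand: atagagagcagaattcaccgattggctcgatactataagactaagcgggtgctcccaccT
Rps13-ps1, chr8:87048071-87048130, plus strand: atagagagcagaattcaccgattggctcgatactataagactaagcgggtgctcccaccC

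**Figure D5:**
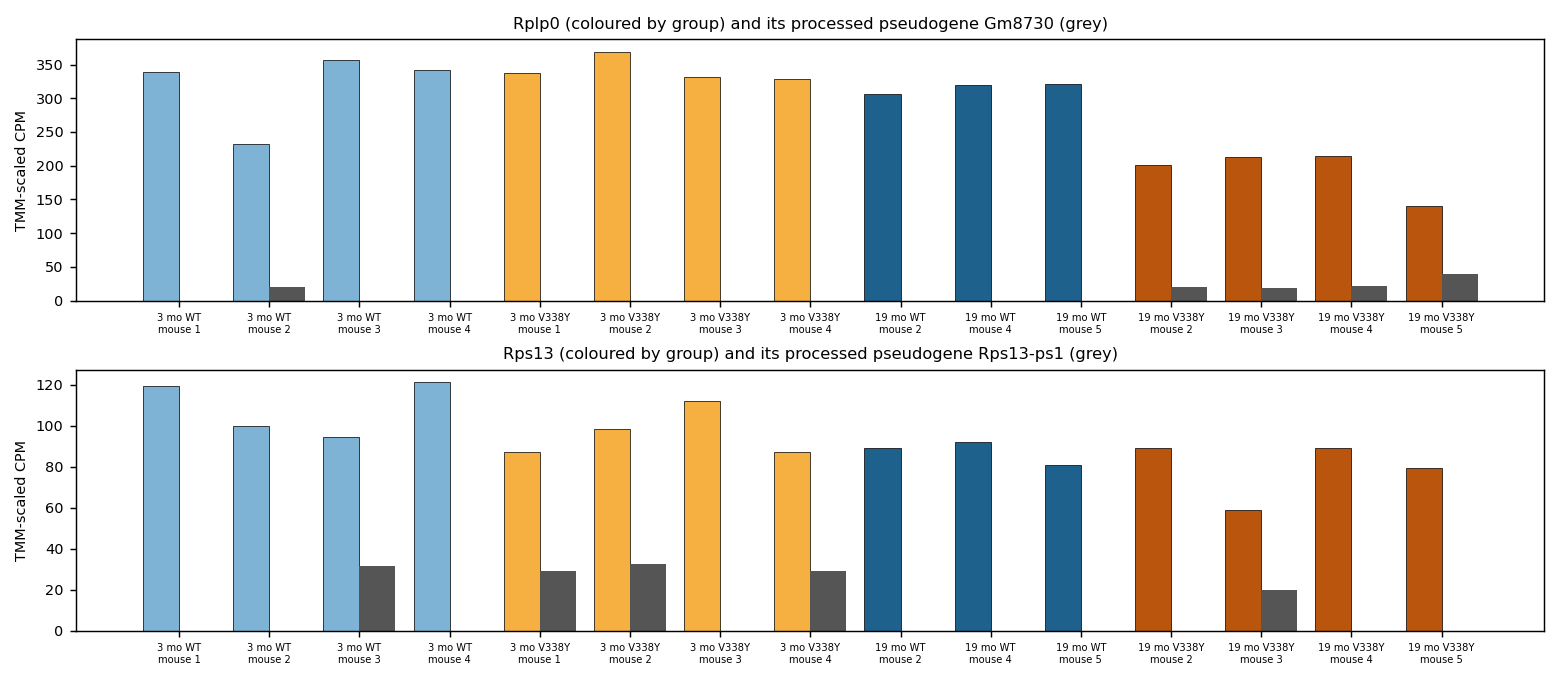
Level in TMM-scaled CPM of Rplp0 and Rps13 (bars coloured by group) and of their processed pseudogenes Gm8730 and Rps13-ps1 (grey bars) in each of the 15 mice. Grey bars appear in 5 mice in each panel and are near 0 in the others. In the upper panel they are those of 3 mo WT mouse 2 and of all 19 mo V338Y mice, and in the lower panel they are spread over 3 groups.

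Near copies took few counts elsewhere. By sequence, 287 pseudogenes matched 57 RP genes at 90% identity or more over at least 50% of the transcript. Over all mice their counts were 9.84% of gene and copies together for Rps13, 3.69% for Rplp0, 2.46% for Rpl29 and 2.20% for Rpl11. Rpl11 was at 74.1 CPM in 3 mo WT mouse 1, where its copy Gm10036 was at 24.6 CPM, against 99.9 to 107 CPM in the other 3 mo WT mice. Gm10036 was also at 8.05 CPM in 19 mo V338Y mouse 3, which had the lowest Rpl11 of its group, 69.9 CPM. Rpl29 also came in steps, at 12.004 to 16.9 CPM in 3 mo WT mouse 1, 3 mo V338Y mouse 4 and 19 mo V338Y mice 3 and 5, and at 22.2 to 29.5 CPM in the other 11. Adding the copies left 21 RP genes called lower with age in WT and 57 in V338Y mice.

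Of the 5S RNP proteins, which hold Mdm2 when ribosome assembly stalls, Rpl11 was called lower in V338Y mice at -0.42 ± 0.109 and was at -0.15 ± 0.146 in WT mice, and Rpl5 was not called in either, at -0.23 ± 0.088 and -0.04 ± 0.090. Rps27a, made as a fusion with ubiquitin, was called lower in V338Y mice at -0.35 ± 0.086, and in WT mice it was at -0.18 ± 0.097. Of 8 RP genes listed as structural landmarks, such as Rpl4 of the exit tunnel and Rps23 of the decoding centre, Rps3, Rps15, Rpsa, Rpl22 and Rpl39 were called lower in V338Y mice and Rpl4, Rps6 and Rps23 were not, against 22.5% of all genes called lower. None of these 8 was called in WT mice, against 17.8% of all genes. Rps6, the substrate of S6 kinase, was at 50.4 ± 5.37 CPM in 3 mo WT (SD, n = 4), 51.3 ± 2.67 in 3 mo V338Y (n = 4), 43.3 ± 1.43 in 19 mo WT (n = 3) and 43.1 ± 3.95 in 19 mo V338Y mice (n = 4).

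The smallest p-values with age in V338Y mice belonged to Rpl36 and Rps14, of the large and the small subunit. Rpl36 was at 109, 97.4, 111 and 99.9 CPM in 3 mo WT and at 105, 109, 107 and 108 CPM in 3 mo V338Y mice, and at 76.9, 83.3 and 72.5 CPM in 19 mo WT and 69.9, 63.0, 74.7 and 64.0 CPM in 19 mo V338Y mice. No 19 mo mouse overlapped the 3 mo mice, and the log2 fold changes were -0.42 ± 0.092 in WT (adjusted p = 0.00743, edgeR) and -0.64 ± 0.090 in V338Y mice (adjusted p = 0.000531, edgeR). Rps14, which lies at the platform of the small subunit, had means of 234 ± 24.8 CPM in 3 mo WT (SD, n = 4), 250.03 ± 15.3 in 3 mo V338Y (n = 4), 170.3 ± 16.7 in 19 mo WT (n = 3) and 158 ± 9.61 in 19 mo V338Y mice (n = 4). Its values were -0.46 ± 0.114 and -0.65 ± 0.093. Rpl27 was also called in both genotypes, at -0.58 ± 0.153 and -0.69 ± 0.127.

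Rpl41, which codes for a very small and basic protein and is 1 of the 4 qPCR reference genes of the study, was not called in any comparison. It was at 65.9, 83.6, 71.7 and 72.5 CPM in 3 mo WT, 70.4, 69.8, 67.8 and 70.1 CPM in 3 mo V338Y, 73.5, 74.2 and 59.5 CPM in 19 mo WT and 67.4, 63.5, 62.9 and 60.9 CPM in 19 mo V338Y mice. The log2 fold change with age was -0.09 ± 0.114 in WT and -0.11 ± 0.077 in V338Y mice. Of the other reference genes, Dync1h1 was called higher with age in both genotypes at 0.39 and 0.41, Actb in V338Y mice at 0.47, and Gapdh in neither, at -0.13 and -0.19. The qPCR of the study compared the genotypes at 19 mo. In that comparison 0 of the 4 reference genes were called, against 0.0361% of all genes higher and 0.00723% lower.

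At 3 mo, no RP mRNA passed the test between genotypes. By edgeR, 0 of 82 RP genes were called in either direction, against 0.0375% of all 13333 genes in each. At an unadjusted p below 0.05, 2 were higher and 2 lower in V338Y mice, and DESeq2 called 0. The values ran from -0.19 to 0.22 with a median of 0.02 and a median SE of 0.074. The V338Y and WT mice did not overlap for 1 gene higher, Rpl22l1, and 2 genes lower, Rpl3 and Rps2, against 2.48% and 2.24% of all genes.

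At 19 mo, again 0 of 82 RP genes were called, against 0.0361% of all 13833 genes higher and 0.00723% lower in V338Y mice. At an unadjusted p below 0.05, 1 was higher, Rpl22l1, and 4 were lower, among them Rplp0, Rpl24 and Rpl23. The median was -0.12 against 0.01 over all genes, with 74 of 82 values negative and a median SE of 0.12. With total counts in place of TMM factors it was 0.025, against 0.15 for all genes. The genotypes did not overlap for 1 gene higher and 6 lower in V338Y mice, against 4.51% and 5.28% of all genes. With mouse number as a block, 0 RP genes were called and the median was -0.10.

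The test of whether age differences depended on genotype, fitted over all 15 mice and 14128 genes, called 0 of 82 RP genes in either direction, against 0% of all genes in each. At an unadjusted p below 0.05, 7 were negative (a larger fall in V338Y mice) and 1, Rpl3, was positive. The median of the term was -0.16 with a median SE of 0.13, and 73 of 82 values were negative. The smallest p belonged to Rplp0, at -0.82 ± 0.209 (adjusted p = 0.364, edgeR). A fall called in V338Y and not in WT mice was therefore not shown to differ between them for any RP gene. In simulated counts on the same mice, 99 of 100 genes changed by 2 on the log2 scale were called with age in V338Y mice and 7 of 100 changed by 0.5. For genotype at 19 mo these were 97 and 2 of 100. Only these genes were changed in the simulation. In the data 24.4% of genes were called higher and 22.5% lower with age in V338Y mice, which makes the adjustment less strict there. The simulated shares therefore do not give the power of that comparison, and the interaction was not simulated.

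Genes that act with the RPs fell in part. Of RPs with other symbols, Fau and Rack1 were at -0.22 and -0.17 with age in WT mice and at -0.25 and -0.26 in V338Y mice, not called. Of 20 genes of RNA polymerase I and its factors, which make ribosomal RNA, 7 were called lower and 0 higher in WT mice and 9 and 0 in V338Y mice, with medians of -0.32 and -0.35. Among them were Polr1d at -0.61 and -0.89 and Polr2l, a subunit shared by all polymerases, at -0.80 and -0.86, and the initiation factor Rrn3 at -0.46 and -0.71. Of 99 ribosome biogenesis factors, 34 were called lower and 6 higher in WT mice and 48 and 6 in V338Y mice, with medians of -0.24 and -0.29. Nop10, of the H/ACA snoRNPs, was at -0.63 and -0.91 and Emg1, a methyltransferase of ribosomal RNA, at -0.65 and -0.59, whereas Naf1 rose at 1.59 and 1.199 and Pelp1 at 0.89 and 0.71. The background for these counts is that of the RP genes, 17.8% and 22.5% lower and 18.3% and 24.4% higher.

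Of 18 other TOP mRNAs, 7 were called lower and 2 higher in WT mice, and 10 and 3 in V338Y mice. Beside the age counts of this paragraph, 17.8% of all genes were called lower and 18.3% higher in WT mice, and 22.5% and 24.4% in V338Y mice. Eef1d, an elongation factor subunit, was called at -0.38 and -0.52, and Hnrnpa1 in V338Y mice at -0.58. The higher ones included Pabpc1, the poly(A)-binding protein, at 0.70 and 1.02. Of 23 tested regulators of RP synthesis, 8 were called higher and 5 lower in WT mice, and 7 and 4 in V338Y mice. Rptor, the scaffold of mTORC1, was at 0.98 and 0.90, Eif4ebp2, a repressor of cap-dependent translation, at 1.24 and 1.24, and Cnbp, which binds TOP mRNAs, was at -0.37 and -0.72. Of 5 genes of the p53 axis that the 5S RNP feeds into, 4 were called higher in each genotype, with Trp53 at 1.07 and 0.98 and its target Cdkn1a at 1.48 and 2.15, and Rrp8 was called lower. Between genotypes, 0 genes of any of these lists were called at either age.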

How the data were processed

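Quadriceps RNA of 15 mice was sequenced with a stranded kit after removal of ribosomal RNA. Per the labels, base calls were made with CASAVA (1.8) and bcl2fastq (1.8.4) and reads were aligned with STAR (2.4.2a). The authors estimated expected counts per Ensembl gene with RSEM, which divides reads that fit several genes between them, so values of genes with near copies are uncertain. The methods and the labels name different genome builds. The deposited expected counts were rounded to whole numbers.

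Gene names, biotypes and lengths came from GENCODE M21 (37693 of 39179 identifiers), and start windows from RefSeq. Each comparison was fitted on its own groups with edgeR (4.0.16, R 4.3.3; quasi-likelihood F test, TMM factors) for genes with at least 10 counts in 50% of the mice of a group, and the interaction on all 15 mice. Adjusted p-values are Benjamini-Hochberg over all genes tested, with a threshold of 0.05. Each p sets a difference between groups against the spread between mice. Levels are TMM-scaled CPM on 1 scale for all mice. DESeq2 (1.42.0) and the settings named in the closing section were alternatives. The self-test on simulated counts recovered 99 of 100 genes changed by 2 (log2) with age in V338Y mice.

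RP genes named singly are the role groups (stalk, 5S RNP, paralogs, X-linked, structural landmarks), the 5 with the smallest p and the 3 largest changes each way in a comparison, the 5 most and least abundant per kb, and the qPCR reference gene, and from other lists up to 3 with the smallest p. A few genes that the rule names are not reported here. The members and lists were chosen with earlier results of these data known.

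Mouse numbers are shared between groups, and nothing in the labels says what they mark. At 19 mo the deviations of the 3 same-numbered pairs of WT and V338Y mice correlated at 0.13 to 0.37. Pairs of unlike number correlated at -0.36 to 0.42, a range that holds the same-numbered values. At 3 mo the same-numbered pairs were at -0.20 to 0.12. Pairing was therefore not shown at either age, and the block was an alternative on a shared number in every comparison.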

Additional observations from a re-analysis of the deposited data

Results flagged for a closer look

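Among 72 group values tested for a mouse far from the other 3 of its group of 4 (groups of 3 were not tested), 4 stood apart, about as many as chance gives, since it marks about 1 in 20. Rplp0 was at 232 CPM in 3 mo WT mouse 2 against 339 to 357 CPM in the other 3, and its copy Gm8730 was counted in that mouse alone of the group. Rps14 was at 144 CPM in 19 mo V338Y mouse 5 against 162 to 164 CPM. Rpl27 was at 35.8 CPM in 3 mo WT mouse 2 against 52.96 to 55.5 CPM, and at 28.8 CPM in 19 mo V338Y mouse 3 against 33.7 to 34.0 CPM. The causes were not tested.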

How the results depend on the processing

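RP values with age depended on the scaling, the length trend and a block on mouse number. RP genes called lower with age in WT mice numbered 2 with mouse number as a block, 5 with the length trend removed (and 2 higher) and 5 with total counts only, and the medians were -0.10, 0.0078 and -0.12. In V338Y mice 35, 35 and 9 were called lower, with medians of -0.25 with the length trend removed and -0.066 with total counts, which called 2 higher. Mouse numbers were not shown to pair mice, so the block is on a shared number only. With total counts the median was 0.025 for genotype at 19 mo and 0.053 for the interaction. DESeq2 called 1 RP gene lower at 19 mo, and the block 1 positive interaction, Rpl3. Shares without the 10 most counted genes were 1.70%, 1.71%, 1.54% and 1.47%. The causes were not tested.

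Leaving out 1 mouse gave 10 to 22 RP genes lower in WT mice and 47 to 58 in V338Y mice, with medians of -0.28 to -0.14 and -0.39 to -0.32. No RP gene was called for genotype or the interaction in these fits of edgeR. Signs turned for values that were not called. Rplp0 with age in WT mice was 0.16 with the block, 0.19 with the length trend removed, 0.084 with total counts and -0.13 to 0.053 without 1 mouse. Rplp0 between genotypes at 3 mo was -0.016 to 0.17 without 1 mouse, with the lowest value without 3 mo WT mouse 2. Rpl3l was -0.0054 to 0.058 without 1 mouse and -0.018 with total counts, which also gave 0.0097 at 19 mo and 0.028 for the interaction. With total counts Rps15, called lower with age in V338Y mice, was at 0.0088 (adjusted p = 0.952, edgeR). RLE and upper-quartile factors, TMM without the RP genes, filterByExpr and added pseudogenes changed the call of 0 named values.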
